A study of Homo sapiens with 4 samples.

Results

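The genes described here are 43 amino acid transporter genes of the solute carrier (SLC) families, read in CCRF-CEM cells, a human T cell leukemia line, with and without glucose. They were taken from the deposited gene table by symbol: SLC1A1 to SLC1A7, the heavy chains SLC3A1 and SLC3A2, the SLC7A, SLC36A, SLC38A and SLC43A genes listed there except SLC38A9, and SLC6A6, SLC6A9, SLC6A14 and SLC6A15. The rule used names and no measured value, and it took 43 of the 60609 gene identifiers in the table. RNA sequencing was done on 4 libraries, all of the genotype CCRF-CEM/HA-AMPKa2 and grown in RPMI with 10% FBS. The 2 Ctrl libraries came from cells kept for 24 hours in control medium, and the 2 No glucose libraries from cells kept for 24 hours in medium without glucose. The labels give no clone for the line and do not say whether the replicates were separate cultures, so every p-value here measures only the spread between these 4 samples. The libraries are called CTRL_7, CTRL_8, ONG_9 and ONG_10 as in the deposited table, and ONG was read as No glucose because the table holds no other groups.

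Amino acid transporters sit in the plasma membrane or in the membranes of lysosomes, and they move amino acids by sodium coupling, by proton coupling, by exchange of one amino acid for another, or by facilitated diffusion. Several work in series: sodium-coupled carriers such as SLC38A1 and SLC38A2 load the cell with glutamine and other neutral amino acids, and exchangers such as SLC7A5 then trade those for leucine and other essential amino acids. Some SLC7 proteins are light chains that reach the cell surface only when bound to a heavy chain of the SLC3 family. Leukemic and activated T cells are known for high levels of SLC7A5, SLC3A2 and SLC1A5, and many of these genes are known targets of the transcription factors ATF4 and MYC.

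The libraries held between 19035535 and 96698709 reads assigned to genes, and CTRL_7 was the deepest. T lineage markers were present in each library, with summed normalized counts of 76285 and 74988 in Ctrl and 75360 and 75224 in No glucose, and all 11 T lineage genes listed were detected. The 5 myeloid markers summed to between 33.4 and 54.7 normalized counts and the 6 erythroid markers to between 3.03 and 7.02, with MPO, HBB and HBG1 at 0 in every library. The 4 B cell markers summed to 710 and 704 in Ctrl and to 438 and 457 in No glucose, nearly all of it CD79A, and the 5 markers of adherent cells to between 415 and 551, mostly EPCAM. Both sums were lower in No glucose, and their part in the results below was not tested. These are bulk samples, so a smaller number of cells of one kind and less RNA per cell cannot be told apart.

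Levels are given as the authors' normalized counts, which are reads divided by a size factor for each library. A gene was tested where its mean normalized count over the 4 libraries was at least 1, and it is called higher or lower where the Benjamini-Hochberg adjusted p of limma was under 0.05. Of the 43 transporter genes, 34 were tested, 4 were called higher in No glucose, 16 were called lower and 14 were not called. Both counts of calls depended on which library was left out, as did those over all genes tested. The counts of those fits are given in the last paragraph. With 1 library left out, the median log2 fold change of the transporter genes lay between -0.30 and -0.24. Over all 27486 genes tested, 35.1% were called, 14.4% higher and 20.7% lower. The median log2 fold change of the 34 transporter genes was -0.29, against 0.04 over all genes tested. Their No glucose and Ctrl libraries did not overlap for 26 of 34 genes, 7 above and 19 below, where 66.8% of all genes tested showed no overlap. Of the 34, 3 (SLC1A3, SLC7A4 and SLC38A8) had a group mean under 1.

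Well-expressed genes were called more often than weak ones, so the transporters were also set beside protein-coding genes at a matched minimum level. A mean of at least 50 normalized counts was reached by 21 transporter genes, of which 2 (9.52%) were called higher and 14 (66.7%) lower. Of the 10656 protein-coding genes at that level, 66.0% were called, 18.9% higher and 47.2% lower. Groups stood apart for 18 of the 21, and for 85.3% of the coding genes. The median log2 fold change was -0.41 for the 21 transporters and -0.20 for the coding genes. The list was chosen with earlier results of these data known, so these figures describe it and test nothing. In the authors' deposited table, 15 of the 25 transporter genes with an adjusted p passed 0.05, only SLC3A2 of them higher, against 37.8% of its 19053 genes; all 15 had the direction found here.

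**Figure D1:**
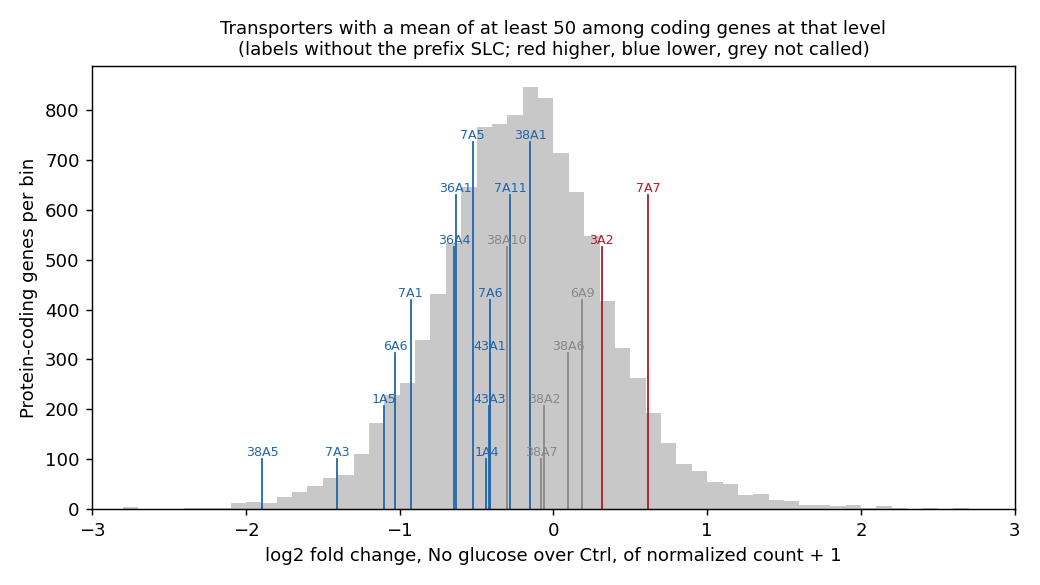
Histogram of the log2 fold change, No glucose over Ctrl, of 10656 protein-coding genes with a mean of at least 50 normalized counts (grey bars, genes per bin), with a line for each of 21 transporter genes at that level, labelled without the prefix SLC; line heights differ only to keep labels apart. SLC38A5 and SLC7A3 lie in the left tail, at -1.89 and -1.41, and SLC3A2 and SLC7A7, at 0.31 and 0.62, are the called genes on the right. The bars leave out 18 of the coding genes, which lie outside the plotted range.

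Short stretches of the promoters are shown because ATF4, MYC and NFE2L2, regulators with known binding letters, are known to act on genes of this family. The RefSeq promoter table (GRCh38.p14; 250 bases before to 50 after each start) matched 32 of the 43 genes, with 52 start sites. It gave no entry for SLC1A2, SLC3A1, SLC6A6, SLC6A15, SLC7A2, SLC7A3, SLC7A4, SLC7A11, SLC7A13, SLC38A3 and SLC43A3. Each window was searched on both strands for TGATGNAAN, the C/EBP-ATF response element through which ATF4 acts, for CACGTG, the E-box bound by MYC with MAX, and for TGACNNNGC, the core of the antioxidant response element bound by NFE2L2. A match describes letters only. No match shown overlapped a match of another motif.

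TGATGNAAN was found at 6 of the 52 start sites (11.5%), and at 3.61% of the 35116 start sites in the whole table. The 6 windows belong to 6 genes, of which 4 were called lower, SLC3A2 was called higher and SLC1A3 was not called. They are printed 5′ to 3′ along the gene's strand, with 10 bases on each side where the window allows and the matched letters in capitals. Matches in SLC1A4 and SLC3A2 lie on the opposite strand and are therefore printed as the reverse complement of the motif. For the SLC1A3 and SLC38A1 windows, the bases after the start were not found at the 5′ end of any GENCODE transcript of the gene.
SLC1A3 (chr5:36596358-36596386, plus strand, first matched base 220 bases before the start): aggaaatgacTGATGCAAAgcagggttaa
SLC1A4 (chr2:64989381-64989409, plus strand, first matched base 8 bases before the start): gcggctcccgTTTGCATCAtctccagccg
SLC1A5 (chr19:46784893-46784921, minus strand, first matched base 97 bases before the start): aggaagtggcTGATGCAAGctgtccaggg
SLC7A1 (chr13:29595663-29595691, minus strand, first matched base 8 bases after the start): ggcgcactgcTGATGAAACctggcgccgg
SLC38A1 (chr12:46266502-46266530, minus strand, first matched base 4 bases before the start): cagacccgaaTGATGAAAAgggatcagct
SLC3A2 (chr11:62881725-62881748, plus strand, first matched base 37 bases after the start): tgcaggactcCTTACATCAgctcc

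CACGTG was found at 9 of the 52 start sites (17.3%), and at 7.26% of all start sites. It occurred in SLC1A5, SLC1A7, SLC7A5, SLC7A7, SLC7A8, SLC36A1, SLC38A5, SLC38A7 and SLC43A1, of which 6 were called lower, 1 higher (SLC7A7) and 2 were not called. The matches of 4 genes called lower are printed, with the E-box in capitals. The SLC1A5 match lies at another listed start than its match above. For this SLC1A5 window, the bases after the start were not found at the 5′ end of any GENCODE transcript of the gene.
SLC38A5 (chrX:48470451-48470476, minus strand, first matched base 206 bases before the start): ctgtagcggaCACGTGgcttgcctgg
SLC7A5 (chr16:87869622-87869647, minus strand, first matched base 130 bases before the start): ccggacgacgCACGTGctccgagctg
SLC1A5 (chr19:46787328-46787353, minus strand, first matched base 50 bases before the start): cgggagtggtCACGTGgacaggacgg
SLC43A1 (chr11:57515799-57515824, minus strand, first matched base 112 bases before the start): gcgggcgagtCACGTGcgcgtgaaac

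TGACNNNGC was found at 7 of the 52 start sites (13.5%), close to its share of 13.3% over all start sites. It occurred in SLC1A3, SLC1A5, SLC3A2, SLC7A1, SLC7A5, SLC7A6 and SLC7A7. The 250 bases before the start are printed for SLC38A5, the gene with the most negative fold change among the transporters tested, and for SLC3A2, the most abundant of the genes called higher, with the E-box of the first and the antioxidant response element of the second in capitals.
SLC38A5 (chrX:48470261-48470510, minus strand): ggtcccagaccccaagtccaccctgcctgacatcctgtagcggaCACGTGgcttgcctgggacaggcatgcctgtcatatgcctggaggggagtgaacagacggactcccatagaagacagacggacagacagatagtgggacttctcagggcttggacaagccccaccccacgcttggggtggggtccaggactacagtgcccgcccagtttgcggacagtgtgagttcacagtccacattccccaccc
SLC3A2 (chr11:62881449-62881698, plus strand): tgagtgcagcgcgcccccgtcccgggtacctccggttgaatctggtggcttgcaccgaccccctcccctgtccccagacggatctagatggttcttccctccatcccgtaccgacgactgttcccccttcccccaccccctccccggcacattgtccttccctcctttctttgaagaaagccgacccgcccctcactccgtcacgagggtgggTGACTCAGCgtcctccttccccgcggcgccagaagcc

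The SLC1 family holds sodium-coupled glutamate carriers and the neutral amino acid exchangers SLC1A4 and SLC1A5. Of its 7 genes, 6 were tested, 1 was called higher and 3 lower, beside 14.4% and 20.7% of all genes tested. SLC1A5, the exchanger best known for glutamine uptake (chr19:46774883-46788594, minus strand), read 3522 and 3297 normalized counts in Ctrl and 1554 and 1615 in No glucose. The No glucose libraries lay together and well below Ctrl. Its level fell by 53.5%, from 3410 ± 159 to 1585 ± 43.05 (mean ± SD, n = 2, in normalized counts). The log2 fold change was -1.10 ± 0.06 (SE; limma adjusted p = 2.3e-07). SLC1A4, which exchanges alanine, serine, cysteine and threonine (chr2:64988477-65023865, plus strand), read 4570 and 4678 in Ctrl and 3478 and 3356 in No glucose. Its groups did not overlap either, and it fell by less, with a log2 fold change of -0.44 ± 0.06 (limma adjusted p = 8.1e-05), or -0.23 with scaling to library totals. Per kilobase of exon, the ratio of SLC1A4 to SLC1A5 was therefore 0.623 and 0.681 in Ctrl and 1.07 and 0.998 in No glucose.

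The glutamate carriers of the family were weak in these cells. SLC1A7, known as a glutamate carrier of the retina, read 47.4 and 36.1 normalized counts in Ctrl and 13.6 and 25.3 in No glucose, and was called lower (log2 fold change -1.11 ± 0.33, limma adjusted p = 0.021). That call was lost without ONG_9, where the log2 fold change was -0.69, without CTRL_7, with library totals (adjusted p = 0.077) and in DESeq2 (adjusted p = 0.12). SLC1A1, the neuronal and epithelial glutamate and cysteine carrier, read 3.43 and 1.34 in Ctrl and 9.10 and 11.2 in No glucose. Those values stand for 10 and 1 reads in Ctrl and 6 and 8 in No glucose; the groups did not overlap, and the call was higher (log2 fold change 1.79 ± 0.55, limma adjusted p = 0.027). The call was lost without CTRL_7, CTRL_8 or ONG_10 and with no filter on low values (adjusted p = 0.057), and a pseudocount of 5 gave 1.05. The ratio of No glucose to Ctrl from its reads was 3.39, with a 95% interval of 1.43 to 8.26 for counting error only. SPATA6L, which overlaps SLC1A1 on the opposite strand, was also called higher, at 22.1 normalized counts on average, and whether counting used strand is not given in the sources used here. SLC1A2 read 2.06 and 0 in Ctrl and 4.55 and 1.40 in No glucose, SLC1A3 read 1.37 and 0 against 1.52 and 12.6, and neither was called; without ONG_9, SLC1A3 was called higher (adjusted p = 0.0065) on ONG_10 alone. SLC1A6 was seen only in CTRL_8, at 1.34 normalized counts, which is 1 read.

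The heavy chain SLC3A2 rose while 3 of its light chains fell. SLC3A2 (4F2hc or CD98, chr11:62856102-62888875, plus strand), the heavy chain that carries several SLC7 light chains to the surface, read 6261 and 6097 normalized counts in Ctrl and 7343 and 8020 in No glucose. Both No glucose libraries were above both Ctrl libraries. It rose by 24.3%, from 6179 ± 116 to 7682 ± 479 (mean ± SD, n = 2), a log2 fold change of 0.31 ± 0.06 (limma adjusted p = 0.0012). Of the 10656 protein-coding genes with a mean of at least 50, 84.1% had a lower fold change. The direction held under the 13 alternative settings (0.52 with scaling to library totals), and the adjusted p was 0.081 without CTRL_7 and 0.095 without CTRL_8. SLC3A1, the heavy chain of the kidney cystine carrier, read 11.3 and 14.7 in Ctrl and 19.7 and 23.9 in No glucose and was not called (log2 fold change 0.70 ± 0.34, adjusted p = 0.13). PREPL overlaps SLC3A1 on the opposite strand at 2771 normalized counts on average, so reads of SLC3A1 are uncertain.

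Of the 8 light chains, 6 were tested, 3 were called lower and 1 higher. Of protein-coding genes with a mean of at least 50, 47.2% were called lower and 18.9% higher. SLC7A5 (LAT1, chr16:87830023-87869488, minus strand), which brings in leucine and other large neutral amino acids, read 7019 and 6433 normalized counts in Ctrl and 4079 and 5343 in No glucose. Both No glucose libraries were below Ctrl, but they differed from each other by 1.31-fold. Its log2 fold change was -0.53 ± 0.10 (limma adjusted p = 0.0017), which was -0.33 without ONG_9; the call was lost without CTRL_7 (adjusted p = 0.083) and with scaling to library totals (adjusted p = 0.079). SLC7A6 (y+LAT2), which exports cationic amino acids in exchange for neutral ones, read 1442 and 1517 in Ctrl and 1114 and 1111 in No glucose. It fell with little spread between libraries, a log2 fold change of -0.41 ± 0.07 (limma adjusted p = 0.00058), and was -0.20 with library totals and not called with upper-quartile scaling (adjusted p = 0.067). SLC7A11 (xCT), which takes up cystine for glutamate, read 1601 and 1617 in Ctrl and 1340 and 1305 in No glucose, a log2 fold change of -0.28 ± 0.06 (adjusted p = 0.0052). That fall was among the smallest called, and it was -0.07 (adjusted p = 0.34) with scaling to library totals, -0.08 (adjusted p = 0.50) with upper quartiles, and not called without CTRL_7 (0.13) or without CTRL_8 (0.15).

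SLC7A7 (y+LAT1), the close relative of SLC7A6 that is best known in kidney, gut and macrophages, went the other way. It read 64.2 and 56.2 normalized counts in Ctrl and 84.9 and 101 in No glucose, with no overlap, and rose by 0.62 ± 0.18 on the log2 scale (limma adjusted p = 0.021). The call was lost without CTRL_7, without CTRL_8, without ONG_10 and in DESeq2. SLC7A9, the light chain that pairs with SLC3A1, read 2.06 and 1.34 in Ctrl and 7.58 and 5.61 in No glucose, and SLC7A8 (LAT2) read 2.06 and 2.68 against 4.55 and 1.40. Neither was called (adjusted p = 0.073 and 0.91), though SLC7A9 passed narrowly with library totals (adjusted p = 0.047), upper quartiles (0.045) and limma-voom (0.043). The light chains SLC7A10 and SLC7A13 were at 0 in every library.

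The ratio of heavy to light chain mRNA per kilobase was higher in both No glucose libraries than in Ctrl. SLC3A2 over SLC7A5 was 0.817 and 0.869 in Ctrl and 1.65 and 1.38 in No glucose. SLC3A2 over the sum of the light chains it is known to pair with was 0.654 and 0.679 in Ctrl and 1.22 and 1.08 in No glucose. Each length is the union of all annotated exons of a gene, which can differ from the mRNA made here. Where a ratio stands against 1 therefore depends on the lengths used, and only its difference between the groups is read here. SLC3A2 over SLC7A11 was 7.29 and 7.02 in Ctrl and 10.2 and 11.4 in No glucose. With 2 libraries against 2, an exact two-sided permutation test of such a ratio cannot go below p = 0.333, so no test was made.

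**Figure D2:**
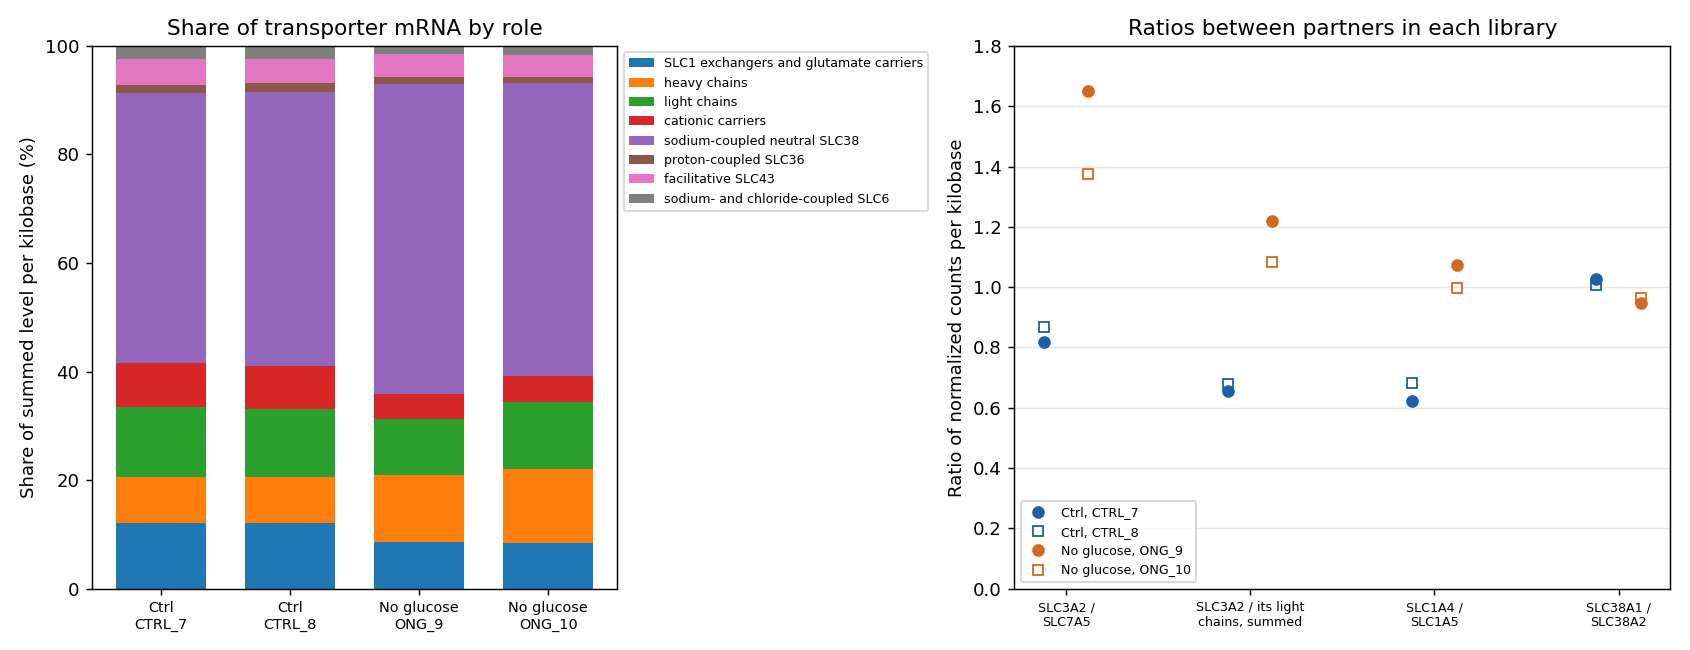
Left, the share in percent of the summed transporter level per kilobase of exon taken by each role in each of the 4 libraries (stacked bars); right, ratios of levels per kilobase between pairs of genes, 1 point per library. The heavy chain share was near 8.51% in Ctrl and 12.96% in No glucose, and the ratio of SLC3A2 to SLC7A5 was higher in both No glucose libraries than in both Ctrl libraries. Shares, and where a ratio stands against 1, depend on the exon lengths used.

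The cationic carriers bring in arginine, lysine and ornithine. Of 5 genes, 3 were tested and 2 were called, both lower, beside 20.7% of all genes tested. These 2 had a mean of at least 50, where 47.2% of protein-coding genes were called lower. SLC7A1 (CAT1, chr13:29509410-29595688, minus strand), the widely expressed arginine carrier, read 6365 and 6005 normalized counts in Ctrl and 3199 and 3296 in No glucose. It fell by 47.5%, a log2 fold change of -0.93 ± 0.06 (limma adjusted p = 3.6e-07). SLC7A3 (CAT3, chrX:70925582-70931125, minus strand), otherwise known from brain, read 726 and 720 in Ctrl and 279 and 265 in No glucose. It fell by 62.4%, from 723 ± 4.601 to 272 ± 9.75 (mean ± SD, n = 2), a log2 fold change of -1.41 ± 0.09 (adjusted p = 4.2e-07), and only 2.06% of protein-coding genes at a mean of at least 50 had a lower one. Groups of both genes were far apart against the spread within them, and per kilobase SLC7A1 over SLC7A3 was 2.58 and 2.46 in Ctrl and 3.38 and 3.66 in No glucose. SLC7A4 read 2.06 and 2.68 in Ctrl and 0 and 1.40 in No glucose and was not called. SLC7A2 and SLC7A14 had at most 3 reads in any library and were not tested.

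The SLC38 family of sodium-coupled neutral carriers held both the most abundant transporters and the gene with the most negative fold change. Of 10 genes, 9 were tested, 1 was called higher, 2 lower and 6 were not called, where 14.4% of all genes tested were called higher and 20.7% lower. SLC38A5 (SNAT5, chrX:48458537-48470256, minus strand), a carrier of glutamine, histidine, serine and glycine, read 1037 and 1002 normalized counts in Ctrl and 250 and 299 in No glucose. It fell by 73.1%, from 1019 ± 24.6 to 275 ± 34.4 (mean ± SD, n = 2), a log2 fold change of -1.89 ± 0.10 (limma adjusted p = 1.3e-07). Of protein-coding genes at a mean of at least 50, 0.422% had a lower fold change, and the call held under each of the 13 alternative settings.

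SLC38A1 (SNAT1, chr12:46183063-46270017, minus strand) and SLC38A2 (SNAT2, chr12:46358189-46372867, minus strand), the main glutamine and alanine loaders of many cells, stand 88172 bases apart and differed far less between the groups. SLC38A1 read 33568 and 32786 normalized counts in Ctrl and 30571 and 29158 in No glucose, a log2 fold change of -0.15 ± 0.05 (limma adjusted p = 0.026). Its libraries did not overlap, but its sign depended on scaling: 0.06 with library totals and 0.05 with upper quartiles, not called in either. It was also not called without CTRL_7 (adjusted p = 0.48) or without CTRL_8 (0.41), nor with no filter on low values (0.055). SLC38A2, known to be induced when amino acids run short, read 21527 and 21434 in Ctrl and 21274 and 19966 in No glucose, a log2 fold change of -0.06 (95% interval -0.17 to 0.05; adjusted p = 0.39). It was called lower without ONG_9 (-0.11, adjusted p = 0.00024) and in limma-voom (-0.10, adjusted p = 0.0040), and with library totals it was 0.15 and called higher (adjusted p = 0.0068). Scaling to library totals moved the median of all genes from 0.04 to 0.23, and SLC38A2 lay below that median under both scalings. Protein-coding genes with a mean of at least 50 had a median of -0.20 on the authors' scale, and SLC38A2 lay above that. Whether it was lower or higher than other genes therefore depended on the genes it was set beside.

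Other SLC38 genes differed little or were weak. SLC38A6 read 248 and 280 in Ctrl and 270 and 293 in No glucose (95% interval of the log2 fold change -0.15 to 0.34), with overlapping groups; TRMT5, which overlaps it on the opposite strand at 1080 normalized counts on average, was called lower. SLC38A7, a lysosomal glutamine exporter, read 249 and 221 against 220 and 223 (95% interval -0.33 to 0.17). SLC38A10 read 1004 and 914 in Ctrl and 661 and 909 in No glucose, a log2 fold change of -0.30 ± 0.13 (limma adjusted p = 0.087), and ONG_9 alone lay far below Ctrl; without ONG_10 it was called lower (-0.53, adjusted p = 0.012), as it was in edgeR and limma-voom. SLC38A4 (SNAT4), known from liver and placenta, was called higher from few reads: 3 and 1 in Ctrl and 8 and 4 in No glucose, or 1.03, 1.34, 12.1 and 5.61 normalized counts. Its log2 fold change was 2.10 ± 0.61 (adjusted p = 0.020), and the ratio from the reads was 7.999 with a 95% counting interval of 2.42 to 34.0; the call was lost without CTRL_7, CTRL_8 or ONG_9, and a pseudocount of 5 gave 1.12. SLC38A4-AS1, which overlaps it on the opposite strand at 54.6 normalized counts on average, was not called. SLC38A3 and SLC38A8 stayed between 0 and 4.21 and were not called, and SLC38A11 was not tested.

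**Figure D3:**
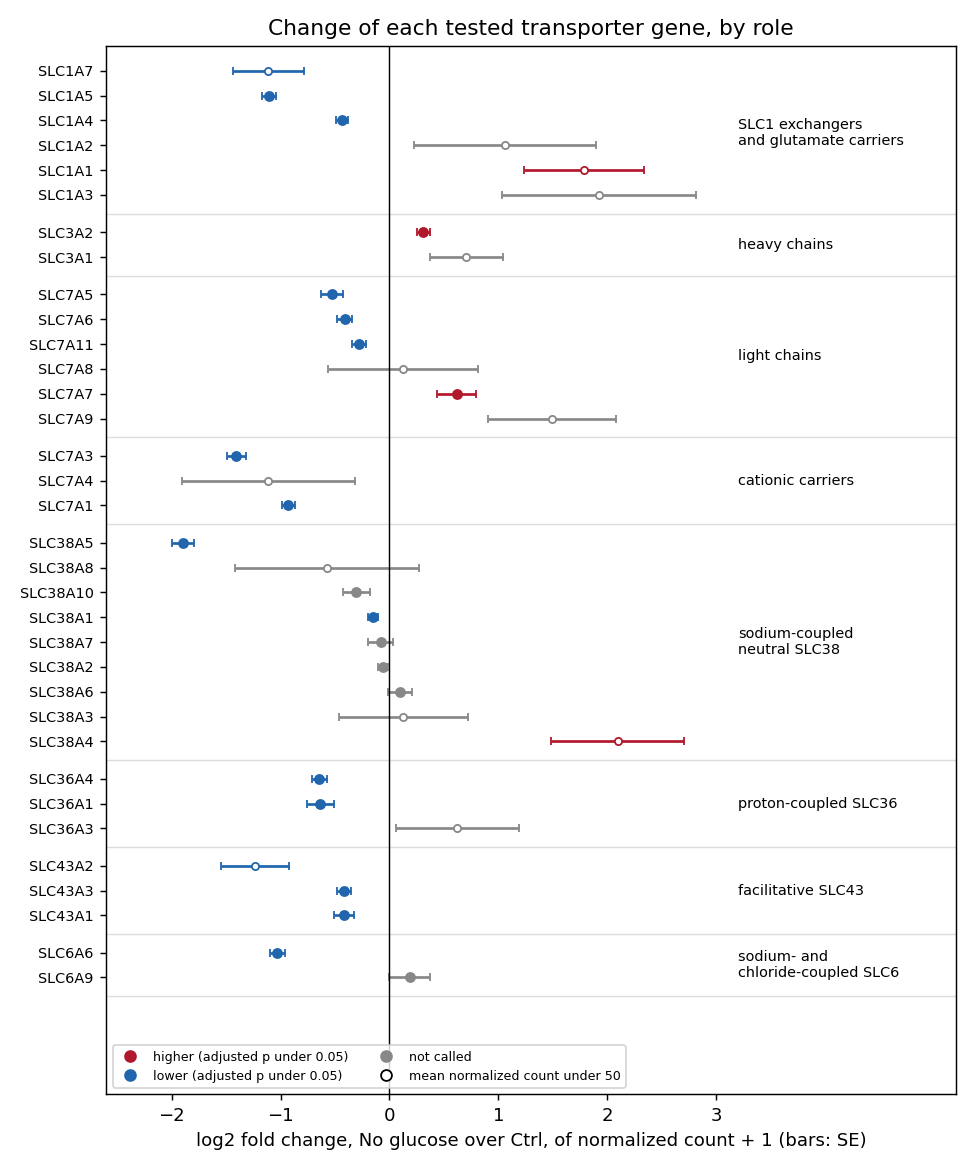
Log2 fold change, No glucose over Ctrl, of normalized count + 1 for each of the 34 tested transporter genes, grouped by role; bars are the SE, colour gives the call and open circles mark genes with a mean under 50 normalized counts. The 2 called cationic carriers and the 3 SLC43 genes all lie left of 0, the heavy chain SLC3A2 lies right of it, and open circles have the widest bars.

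The SLC36 carriers export amino acids from lysosomes or take them up at the surface. Of 4 genes, 3 were tested and 2 were called, both lower, as were 47.2% of protein-coding genes with a mean of at least 50. SLC36A4 (chr11:93144171-93197964, minus strand), a high-affinity carrier of proline and tryptophan, read 1860 and 1822 normalized counts in Ctrl and 1228 and 1127 in No glucose, a log2 fold change of -0.65 ± 0.07 (limma adjusted p = 2.4e-05). SLC36A1 (PAT1, chr5:151437046-151492381, plus strand), the lysosomal carrier linked to mTORC1, read 189 and 190 in Ctrl and 124 and 119 in No glucose, a log2 fold change of -0.63 ± 0.13 (adjusted p = 0.0020). The genes fell by nearly the same amount from different starting levels, and only the SLC36A1 call was lost without CTRL_7 (adjusted p = 0.059). SLC36A3 read 4.12 and 9.36 in Ctrl and 6.06 and 16.8 in No glucose and was not called, and SLC36A2 was not tested.

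The 3 SLC43 genes were all called lower, beside 20.7% of all genes tested and 47.2% of protein-coding genes with a mean of at least 50. SLC43A3 (chr11:57406954-57427580, minus strand), a member of the family known for carrying purine nucleobases, read 2436 and 2226 normalized counts in Ctrl and 1788 and 1701 in No glucose, a log2 fold change of -0.42 ± 0.07 (limma adjusted p = 0.00053). SLC43A1 (LAT3, chr11:57484534-57515786, minus strand), a facilitative carrier of branched-chain amino acids, read 460 and 441 in Ctrl and 344 and 331 in No glucose, with a log2 fold change of -0.41 ± 0.09 (adjusted p = 0.0041). These neighbours lie 56954 bases apart on the same strand, and their fold changes were nearly equal. Scaling to library totals left -0.21 (adjusted p = 0.025) for SLC43A3 and -0.20 (adjusted p = 0.091) for SLC43A1. With upper-quartile scaling neither passed (adjusted p = 0.0501 for SLC43A3 and 0.13 for SLC43A1). Neither was called without CTRL_7 (adjusted p = 0.070 and 0.12), nor SLC43A1 without CTRL_8 (0.059). SLC43A2 (LAT4), a facilitative carrier of leucine, phenylalanine and methionine, read 61.1 and 53.5 in Ctrl and 16.7 and 33.7 in No glucose, a log2 fold change of -1.23 ± 0.31 (adjusted p = 0.0093). Its No glucose libraries differed widely: the log2 fold change was -0.75 without ONG_9 and -1.72 without ONG_10, and the call was lost without CTRL_7.

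Of the 4 SLC6 genes, which couple to sodium and chloride, SLC6A6 was called lower and no other was called. Among protein-coding genes with a mean of at least 50, 47.2% were called lower. SLC6A6 (chr3:14402576-14489349, plus strand), the taurine carrier, read 2748 and 2662 normalized counts in Ctrl and 1274 and 1376 in No glucose. It fell by 51.0%, a log2 fold change of -1.03 ± 0.07 (limma adjusted p = 5.0e-07), with the groups far apart. SLC6A9, a glycine carrier, read 78.0 and 58.9 in Ctrl and 75.8 and 78.6 in No glucose, and its groups overlapped (log2 fold change 0.19 ± 0.19, adjusted p = 0.51). SLC6A14 was at 0 in every library, and SLC6A15 had 1 read, in CTRL_7.

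The 9 genes under the test's minimum level were SLC1A6, SLC6A14, SLC6A15, SLC7A2, SLC7A10, SLC7A13, SLC7A14, SLC36A2 and SLC38A11. Among them SLC6A14, SLC7A10 and SLC7A13 had no read in any library. A count of 0 allows up to 3 reads, which is 1.03 normalized counts in CTRL_7, 4.01 in CTRL_8, 4.55 in ONG_9 and 4.21 in ONG_10, for counting error only. These genes were not detectable above that depth.

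Per kilobase of exon, SLC38A1 and SLC38A2 were the most abundant transporters, at 3313 and 3254 normalized counts per kilobase in Ctrl and 2982 and 3123 in No glucose. In Ctrl SLC7A5 (1417), SLC3A2 (1193) and SLC1A5 (1023) followed, then SLC7A1 (804), SLC1A4 (666), SLC43A3 (516), SLC6A6 (328), SLC7A3 (319) and SLC38A5 (254). In No glucose the order changed: SLC3A2 stood at 1484 per kilobase, above SLC7A5 at 993, and SLC1A4 at 492 and SLC1A5 at 476 were level within their spread. SLC38A5 dropped to 68.4 per kilobase, below SLC7A6 (147), SLC36A4 (122) and SLC7A11 (137). SLC38A1 and SLC38A2 lay close to each other in every library, with ratios of SLC38A1 to SLC38A2 of 1.03, 1.01, 0.947 and 0.963. The order between genes depends on the exon lengths used, while a gene's change between the groups does not.

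**Figure D4:**
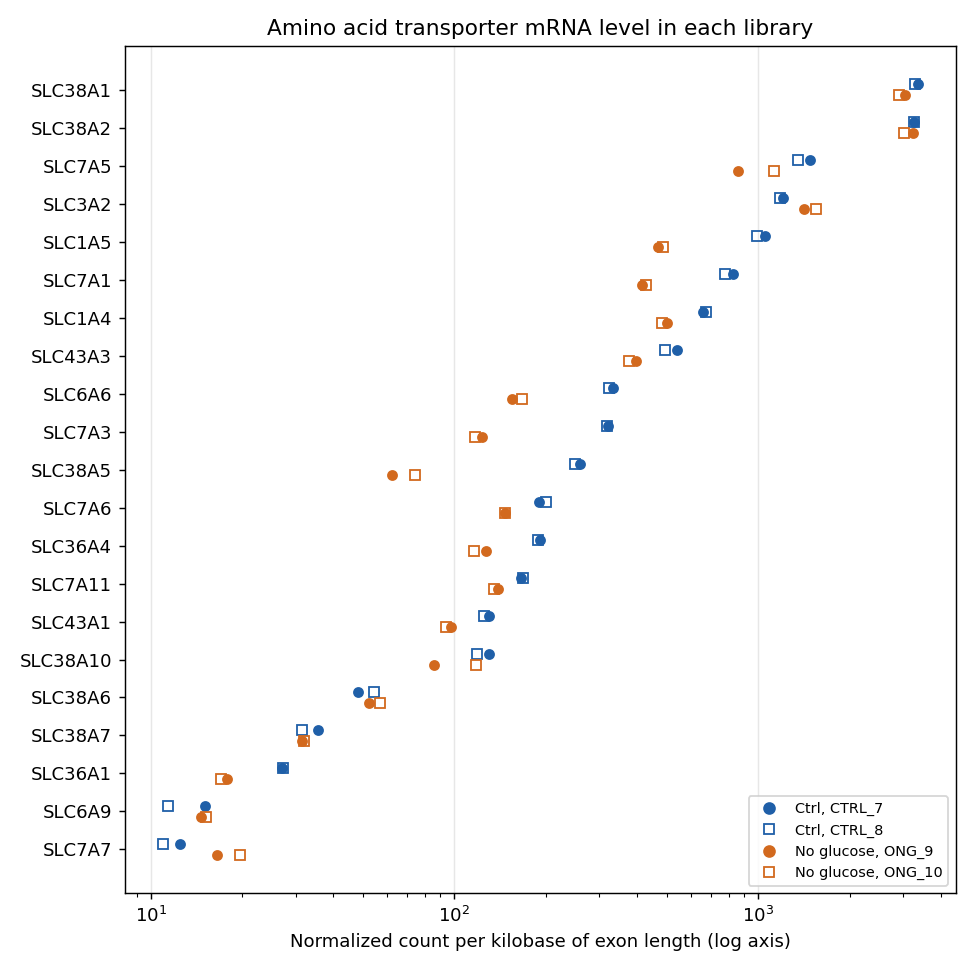
Normalized count per kilobase of exon (log axis) in each of the 4 libraries for the 21 transporter genes with a mean of at least 50 normalized counts, ordered by their Ctrl level. The widest gaps between Ctrl and No glucose points are those of SLC38A5 (254 and 68.4 on average) and SLC7A3 (319 and 120), and SLC38A2 points nearly coincide.

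Summed over the 43 genes, transporter mRNA was 14265 and 13835 normalized counts per kilobase in Ctrl and 11420 and 11518 in No glucose. As a share of all reads, the 43 genes held 0.290% ± 0.0028 in Ctrl and 0.282% ± 0.0035 in No glucose (mean ± SD, n = 2). The summed level was therefore clearly lower on the authors' scale, and much less so as a share of reads. Within the sum, the SLC38 family went from 50.1% ± 0.525 to 55.5% ± 2.14 and the heavy chains from 8.51% ± 0.027 to 12.96% ± 0.73. The SLC1 family went from 12.1% ± 0.014 to 8.50% ± 0.021 and the cationic carriers from 8.002% ± 0.076 to 4.73% ± 0.015. The light chains went from 12.8% ± 0.30 to 11.3% ± 1.56, a difference within the spread of the No glucose libraries. SLC38A1 and SLC38A2 together made up 46.7% ± 0.55 of the sum in Ctrl and 53.2% ± 2.41 in No glucose.

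Copies and overlapping genes bear on a few of these values. SLC7A5P1, a pseudogene of SLC7A5, held 37.6 normalized counts on average and was not called. How many reads it shares with SLC7A5 was not tested. SLC7A11-AS1, antisense to SLC7A11, read 73.9 and 66.9 in Ctrl and 25.8 and 18.2 in No glucose and was called lower, while SLC7A6OS, opposite SLC7A6, was not called at 307 on average. LOC107986412, opposite SLC1A3, held 443 normalized counts on average, so the SLC1A3 value is uncertain.

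Other genes of amino acid transport, its control and amino acid metabolism were read from 3 lists. Of 19 further transporters, 12 were tested, 2 were called higher and 4 lower, and the median was -0.22 on the log2 scale. The 8 with a mean of at least 50 held all of these calls, 4 of 8 lower beside 47.2% of protein-coding genes at that level, whose median was -0.20. SLC16A10 (TAT1), a facilitative carrier of aromatic amino acids, went from 973 ± 19.9 normalized counts in Ctrl to 437 ± 2.85 in No glucose (-1.15 ± 0.08 on the log2 scale, limma adjusted p = 7.2e-07). SLC66A1 (PQLC2), the lysosomal exporter of cationic amino acids, fell (-0.94 ± 0.20), and SLC15A3, a lysosomal peptide and histidine carrier, fell as well (-0.75 ± 0.20). SLC6A20, a proline carrier, rose from 74.2 ± 0.93 to 133 ± 18.5 (0.82 ± 0.16, adjusted p = 0.0018).

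Of 18 regulators and partners of the transporters, 17 were tested, 3 were called higher and 10 lower, with a median of -0.50. All 17 had a mean of at least 50, where 18.9% of protein-coding genes were called higher and 47.2% lower, with a median of -0.20. ATF4, which induces many amino acid transporters when amino acids are short, read 11930 and 11796 normalized counts in Ctrl and 6958 and 6689 in No glucose (log2 fold change -0.80 ± 0.05, limma adjusted p = 4.5e-07). MYC, which drives transporter genes in growing lymphocytes, read 10227 and 9909 in Ctrl and 3692 and 3751 in No glucose (-1.44 ± 0.05, adjusted p = 1.6e-08). CHAC1, an ATF4 target that degrades glutathione, fell from 211 ± 4.63 to 34.3 ± 0.85, and EIF2AK4 (GCN2), the kinase that senses uncharged tRNA, from 2782 ± 28.97 to 1390 ± 56.6. DDIT3 (CHOP), another ATF4 target, rose from 318 ± 30.2 to 797 ± 7.58. LAPTM4B, a lysosomal partner of SLC7A5 and SLC3A2, was at 0 in every library.

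Of 20 enzymes of amino acid metabolism, 18 were tested, 3 were called higher and 11 lower, with a median of -0.48. Of the 13 with a mean of at least 50, 2 were higher and 11 lower, beside 18.9% and 47.2% of protein-coding genes at that level. BCAT2, the mitochondrial branched-chain aminotransferase, went from 1111 ± 99.7 normalized counts in Ctrl to 478 ± 41.8 in No glucose, which is -1.21 ± 0.09 on the log2 scale (limma adjusted p = 1.8e-06). BCAT1, its far more abundant relative, went the other way. It rose from 36705 ± 178 to 48918 ± 2347 (0.41 ± 0.05, limma adjusted p = 4.1e-05). SHMT1, which interconverts serine and glycine in the cytosol, fell (-1.10 ± 0.07), as did GCLM, a subunit of the first enzyme of glutathione synthesis (-1.08 ± 0.08). ARG1, the liver-type arginase, rose from 14.3 ± 3.146 to 36.6 ± 6.13 (1.31 ± 0.31, adjusted p = 0.0057). ARG2, its more abundant relative, rose as well, from 268 ± 2.44 to 501 ± 53.2 (0.90 ± 0.10, limma adjusted p = 3.8e-05).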

How the data were processed

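RNA sequencing of 2 Ctrl and 2 No glucose samples was read from the authors' deposited gene table. Its values are a signal, gene counts divided by a size factor per library, beside the authors' log2 fold changes, test score and p-values. Per the submitters' processing notes, the tools were STAR 2.6.0c, RSEM 1.3.0 and DESeq2 1.18.1 on hg38; the annotation release and the counting strand are not given in the sources used here. Whole reads were recovered from the steps of the values, 100% of them within 0.01 of a whole read, which gave depths of 19035535 to 96698709 reads. Deeper libraries measure weak genes more precisely; the test weighs the libraries equally. Column names tell the group but not the replicate.

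Genes averaging 1 or more normalized counts over the 4 libraries were tested on log2(normalized count + 1) with limma 3.58.1 (trend; R 4.3.3), two-sided, with Benjamini-Hochberg adjustment over 27486 genes; fold changes of weak genes are understated on this scale. edgeR 4.0.16 (quasi-likelihood) on the recovered reads called 10256 genes, 3964 higher and 6292 lower; DESeq2 1.42.0, limma-voom, other scalings, pseudocounts and filters, and leaving out each library were the other alternatives. Only the limma fit was checked on simulated data, with changes set in genes with a mean of at least 50. It called 9 of 50 genes raised 1.5-fold, 37 of 50 raised 2-fold, 50 of 50 raised 4-fold and 27 of 50 lowered to 0.5-fold. The simulation gave 123 calls in all, against 9643 in the data. With so few changed genes the adjustment is stricter, so these shares do not carry over to the real fit. A gene not called may still differ. Coordinates and exon lengths came from GENCODE 29 (GRCh38), which held all 43 genes. The exon length of a gene is the union of all its annotated exons. Every transporter gene could be named. Of each other list, ATF4, MYC, genes at 0 and up to 4 called genes with the largest absolute fold change could be named. SLC15A4, BCAT1 and ARG2 were added as relatives of genes named by that rule. Genes and lists were chosen with earlier results of these data known. The rule for the authors' own calls was an adjusted p under 0.05.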

Additional observations from a re-analysis of the deposited data

How the results depend on the processing

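Over up to 13 alternatives (11 for SLC1A1 and SLC38A4, which had no value in DESeq2 or with a minimum mean of 10), 19 of the 20 called transporter genes kept their direction, all but SLC38A1, and 7 (SLC1A4, SLC1A5, SLC6A6, SLC7A1, SLC7A3, SLC36A4 and SLC38A5) were called in each. The 4 genes called higher became 6 with library totals (22.2% of all genes higher), 5 with upper quartiles (23.2%), 1 in DESeq2 (13.6% of all genes higher) and 2 with a minimum mean of 10 (21.3%), and between 0 and 4 when a library was left out (0 without CTRL_7 and 0 without CTRL_8, where 7.46% and 7.44% of all genes were called higher, and 2 without ONG_10). The 16 called lower became 11 with library totals and 11 with upper quartiles, and between 8 and 17 when a library was left out (8 without CTRL_7, where 12.2% of all genes were called lower). The median log2 fold change of -0.29 was -0.083 with library totals, -0.094 with upper quartiles, -0.34 in limma-voom, -0.22 with a pseudocount of 5, -0.42 with a minimum mean of 10, and between -0.30 and -0.24 when a library was left out. Signs turned for SLC38A1 (0.059 and 0.048 with library totals and upper quartiles), SLC38A2 (0.15 and 0.14) and SLC38A7 (0.13 and 0.12). When a library was left out, signs turned for genes not called: SLC38A7 between -0.17 and 0.0049, SLC36A3 between -0.044 and 1.29, SLC38A3 between -0.060 and 0.32 (-0.056 without ONG_10), SLC6A9 between -0.015 and 0.39, SLC7A8 between -0.48 and 0.73 (-0.0093 without CTRL_7), and SLC38A8 at 0.10 without ONG_10. Library totals and upper quartiles moved the median of all genes from 0.04 to 0.23 and 0.22; with library totals 6106 genes were called higher and 3818 lower, 22.2% and 13.9% of those tested. The causes were not tested. No paired analysis was possible because the table's columns carry no replicate numbers that match the labels. Genes under 3 reads in a library are limited by depth.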
